A study of Mus musculus with 8 samples.

Results

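The genes described here are 7 isoforms of the pumps that move sodium and calcium out of the cytosol. They are the sodium pump beta subunits Atp1b1, Atp1b2 and Atp1b3, the endoplasmic reticulum calcium pumps Atp2a2 and Atp2a3, and the plasma membrane calcium pumps Atp2b2 and Atp2b4. They are 7 of 55573 gene IDs in the count files and 7 of the 18205 genes that passed the filter on low counts. They were picked by symbol, with their levels in the same 8 libraries known, so their values below, and which of them passed the threshold of the fit over all genes, are a description and support nothing further.

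RNA was taken from cells sorted from the cortex of C57BL/6 mice that all carried PV-Cre, a Cre recombinase driven from the parvalbumin locus, and a Cre-dependent tdTomato red fluorescent reporter. The 4 groups were PV-Cre/tdTomato/Dnmt1 loxP2 mice at 18 months (KO), PV-Cre/tdTomato/Dnmt1 wild-type mice at 18 months (WT), and the same KO and WT genotypes at 6 months, with 2 libraries each. Dnmt1 encodes the maintenance DNA methyltransferase, and the floxed line, made in a B6;129Sv stock, loses exons 4 and 5 of it where Cre acts. Per the series' design text, the cells were pooled from 6 KO and 6 WT mice and the libraries are technical replicates. An SD, SE or p-value here therefore rests only on how libraries differ, which may be technical, and says nothing of how mice differ. The model deletes Dnmt1 only in cells that express, or have expressed, this driver.

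The sodium pump exchanges sodium for potassium across the plasma membrane at the cost of ATP. It is built from a catalytic subunit and a beta subunit that carries the enzyme to the membrane and tunes its affinity for ions. In brain, beta1 (Atp1b1) is known mainly from neurons, beta2 (Atp1b2) mainly from astrocytes, and beta3 (Atp1b3) is more widespread. Calcium pumps are single catalytic chains: SERCA pumps (Atp2a genes) fill the endoplasmic reticulum, and PMCA pumps (Atp2b genes) expel calcium from the cell. PMCA2 (Atp2b2) is a fast pump known from neurons, PMCA4 (Atp2b4) occurs in many cells including smooth muscle and red cells, SERCA2 (Atp2a2) is the general pump of the reticulum, and SERCA3 (Atp2a3) is known from vessel lining cells and platelets among others.

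Library totals ranged from 6008175 to 13551218 reads. Dnmt1 was measured at 75.4 ± 1.64 CPM in KO and 80.9 ± 0.217 CPM in WT at 18 months, and at 76.2 ± 1.39 CPM in KO and 100.8 ± 4.03 CPM in WT at 6 months (SD, n = 2). The fall in KO at 6 months passed the test (log2 fold change -0.40, edgeR adjusted p = 0.0001), and at 18 months it did not (-0.10, edgeR adjusted p = 0.281). Reads outside exons 4 and 5 do not check the deletion. The label of the cells as parvalbumin interneurons was not borne out by the marker: Pvalb was covered by 6 reads in all 8 libraries together, with a maximum of 2 in a single library. Log2 CPM of the WT libraries at 6 months correlated across genes at 0.9 to 0.951 with those of the other groups, while the highest value among those others was 0.977. The rRNA-like gene Gm26917 took 9.63% of reads in WT at 6 months and 1.74% to 4.57% in the group means of the others. The share of mitochondrial rRNA genes was 1.98% for KO and 3.3% for WT libraries of 18 months, and 5.26% for KO and 0.857% for WT libraries of 6 months. Leaving out Gm26917 and the mitochondrial genes changed no call of a member. Both WT libraries at 6 months thus stood apart, and every value against that group rests on them. The comparison of genotypes at 18 months and that of ages in KO do not set a group against them. The SEs and p-values of these comparisons still draw on them, since all 8 libraries were fitted together.

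Upstream bases are printed for Atp1b1, Atp1b3 and Atp2a3, since each of these was highest in a different group and since Dnmt1 methylates cytosines in CG pairs. The sequences are the bases before the gene start in RefSeq's promoter windows of GRCm38.p6, written 5′ to 3′ on the gene's strand, with each CG pair in capitals. The window of Atp1b1 is chr1:164458356-164458605 on the minus strand, that of Atp1b3 is chr9:96364443-96364681 on the minus strand, and that of Atp2a3 is chr11:72960919-72961168 on the plus strand.
Atp1b1: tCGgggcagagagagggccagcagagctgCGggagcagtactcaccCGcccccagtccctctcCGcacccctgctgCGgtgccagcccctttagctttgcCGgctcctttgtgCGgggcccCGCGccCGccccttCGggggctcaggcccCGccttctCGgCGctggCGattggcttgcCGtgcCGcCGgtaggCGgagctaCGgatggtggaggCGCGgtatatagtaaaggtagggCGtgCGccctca
Atp1b3: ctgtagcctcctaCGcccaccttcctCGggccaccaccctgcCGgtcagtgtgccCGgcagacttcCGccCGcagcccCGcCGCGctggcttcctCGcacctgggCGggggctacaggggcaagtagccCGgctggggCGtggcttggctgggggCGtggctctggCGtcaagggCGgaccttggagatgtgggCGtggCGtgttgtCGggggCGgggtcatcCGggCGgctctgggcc
Atp2a3: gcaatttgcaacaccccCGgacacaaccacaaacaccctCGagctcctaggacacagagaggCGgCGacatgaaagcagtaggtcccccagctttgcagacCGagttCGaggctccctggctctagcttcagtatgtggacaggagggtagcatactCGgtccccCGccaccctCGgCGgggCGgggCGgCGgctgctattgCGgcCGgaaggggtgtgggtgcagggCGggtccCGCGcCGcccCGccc
The 250 bases of Atp1b1 held 24 CG pairs, a number reached or passed by 12% of all windows of that length. The 250 bases of Atp2a3 held 20, reached by 17.9%, and the 239 bases of Atp1b3 held 22, reached by 13.1%. The median over all 32851 windows cut to 250 bases was 6. The GC box GGGCGG, or its complement CCGCCC on the other strand, occurred 2 times before Atp1b1, 5 times before Atp1b3 and 5 times before Atp2a3, overlapping matches counted, and at least once in 32.7% of all windows of 250 bases and 31.2% of those of 239. These matches describe the letters in the window, and DNA methylation was not analysed here. Atp2b2 and Atp2b4 had windows that lie inside the annotated gene and are not printed, and Atp1b2 and Atp2a2 are named only.

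The beta subunits ran in opposite directions, with Atp1b1 and Atp1b2 highest in WT at 6 months and Atp1b3 lowest there. Levels are given as CPM, reads per 1000000 of the TMM-adjusted library total. Atp1b1 (beta1, ENSMUSG00000026576, chr1:164437109-164458355, minus strand, mm10) was measured at 53.7 and 58.6 CPM in KO at 18 months, 35.0 and 29.3 CPM in WT at 18 months, 63.8 and 62.1 CPM in KO at 6 months, and 158 and 151 CPM in WT at 6 months. Both WT libraries at 6 months lay far above the rest, and no group overlapped another. KO over WT was 1.77-fold higher at 18 months (log2 fold change 0.82 ± 0.0898, SE) and 2.46-fold lower at 6 months (-1.30 ± 0.0816). In WT the level at 18 months was 4.88-fold lower than at 6 months (log2 fold change -2.29 ± 0.0872), and in KO it was 1.12-fold lower (-0.17 ± 0.0839). Exons of Atp1b1 overlap those of Nme7 on the opposite strand, which held 802 reads over the 8 libraries, and whether the counting used strand is not stated in the sources used here.

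Atp1b2 (beta2, ENSMUSG00000041329, chr11:69599736-69605942, minus strand), known as the adhesion molecule on glia, had 248 and 276 CPM in KO at 18 months, 149 and 139 CPM in WT at 18 months, 265 and 297 CPM in KO at 6 months, and 381 and 348 CPM in WT at 6 months. WT at 18 months was lowest and WT at 6 months highest, and the KO libraries of both ages overlapped each other between them. KO over WT was 1.82-fold higher at 18 months (log2 fold change 0.86 ± 0.0698) and 1.3-fold lower at 6 months (-0.38 ± 0.0687). With age it was 2.53-fold lower in WT (log2 fold change -1.34 ± 0.0711) and 1.07-fold lower in KO (-0.10 ± 0.0678).

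Atp1b3 (beta3, ENSMUSG00000032412, chr9:96332655-96364442, minus strand) ran the other way, with 272 and 282 CPM in KO at 18 months, 382 and 380.4 CPM in WT at 18 months, 279 and 263 CPM in KO at 6 months, and 150.0 and 144 CPM in WT at 6 months. WT at 18 months was highest and WT at 6 months lowest, and the KO libraries of both ages again overlapped in the middle. KO over WT was 1.38-fold lower at 18 months (log2 fold change -0.46 ± 0.0557) and 1.84-fold higher at 6 months (0.88 ± 0.0611). The level at 18 months was 2.59-fold higher than at 6 months in WT (log2 fold change 1.37 ± 0.0604) and differed by 0.03 ± 0.0566 in log2 in KO. In bulk RNA of this kind, fewer cells of a type and less RNA per cell cannot be told apart.

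**Figure D1:**
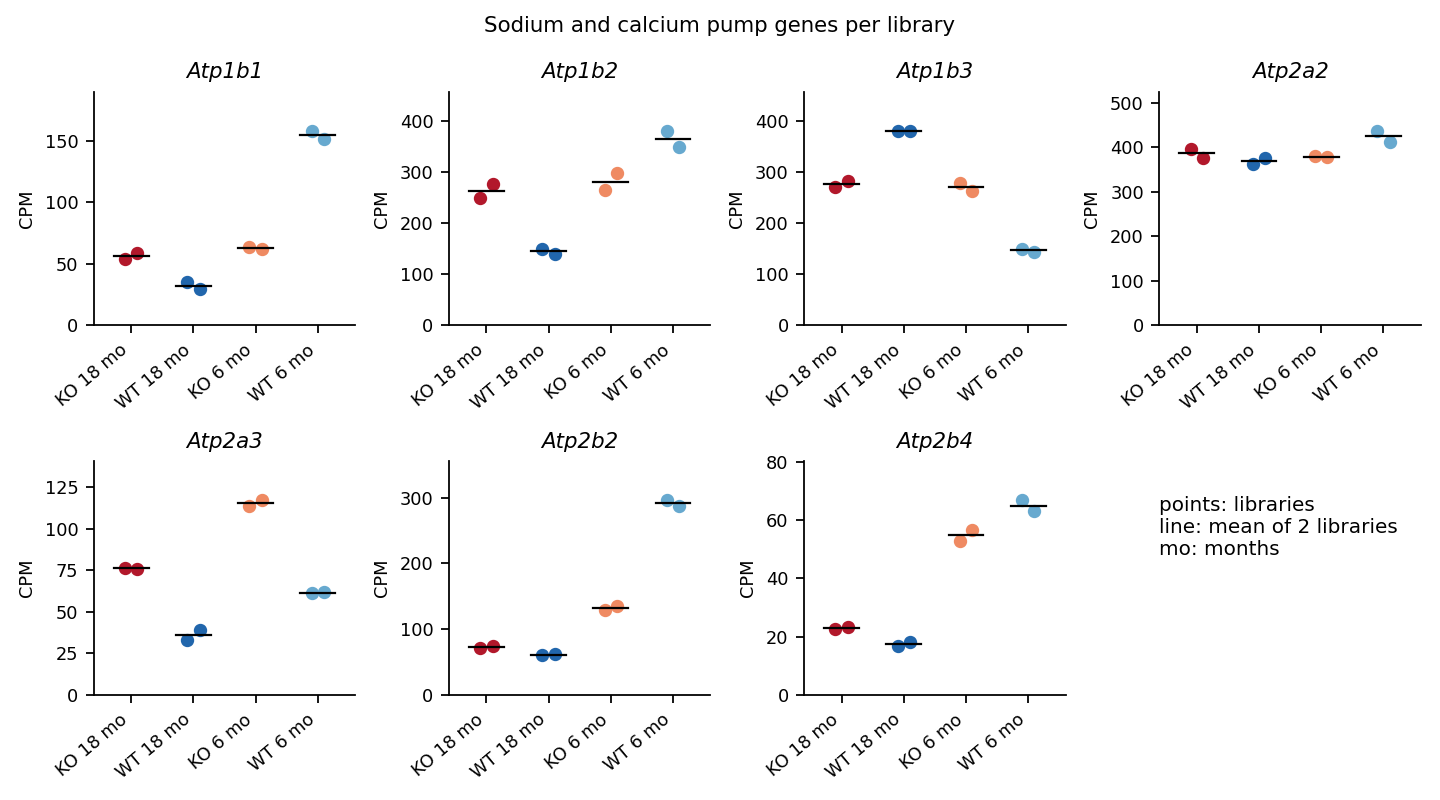
Level of the 7 pump genes in each library, in CPM on a linear axis from 0 for each gene, with groups on the x axis. Points are libraries and lines are the means of 2 libraries. Atp1b1, Atp1b2, Atp2b2, Atp2b4 and, by a small margin, Atp2a2 were highest in WT at 6 months. Atp1b3 was highest in WT at 18 months, and Atp2a3 was highest in KO at 6 months.

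Levels of different genes were compared per length, as CPM per kb of merged exons. On that scale the summed beta subunit level was near flat, at 192.0 to 208 CPM per kb over the 8 libraries, while its make-up was not. Atp1b1 made up 9.18% ± 0.153 of beta RNA in KO and 5.07% ± 0.556 in WT at 18 months, and at 6 months 10.1% ± 0.227 in KO and 25.0% ± 0.312 in WT (SD, n = 2). The share of Atp1b2 was 32.3% ± 0.964 in KO and 17.2% ± 0.543 in WT at 18 months, and at 6 months 33.9% ± 2.67 in KO and 44.4% ± 0.803 in WT. Atp1b3 took the rest, with 58.5% ± 1.12 in KO and 77.7% ± 1.10 in WT at 18 months, and at 6 months 56.0% ± 2.45 in KO and 30.6% ± 0.491 in WT. It was the most abundant beta subunit per length in 3 groups, and Atp1b2 was in WT at 6 months. The beta shares of KO at 18 and at 6 months lay close together and between those of WT at the 2 ages.

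The neuronal beta subunit against the glial one was at a log2 ratio of Atp1b1 over Atp1b2 of -1.82 ± 0.0190 in KO and -1.77 ± 0.113 in WT at 18 months, and at 6 months of -1.75 ± 0.146 in KO and -0.83 ± 0.0441 in WT (per length, SD, n = 2). The first 3 groups differed from each other by less than the largest of their SDs, and WT at 6 months lay above them by more than any SD. The log2 ratio of Atp1b3 over Atp1b2 was 0.85 ± 0.0705 in KO and 2.17 ± 0.0659 in WT at 18 months, and at 6 months 0.72 ± 0.177 in KO and -0.53 ± 0.0492 in WT. Thus the balance of beta1 to beta2 separated WT at 6 months alone, while that of beta3 to beta2 also set WT at 18 months apart from KO. Whether the ratio of beta1 to beta2 measures neurons against glia here was not tested. In these libraries the profile of Atp1b1 lay nearer the astrocyte marker sum than the pan-neuronal one, as given below.

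**Figure D2:**
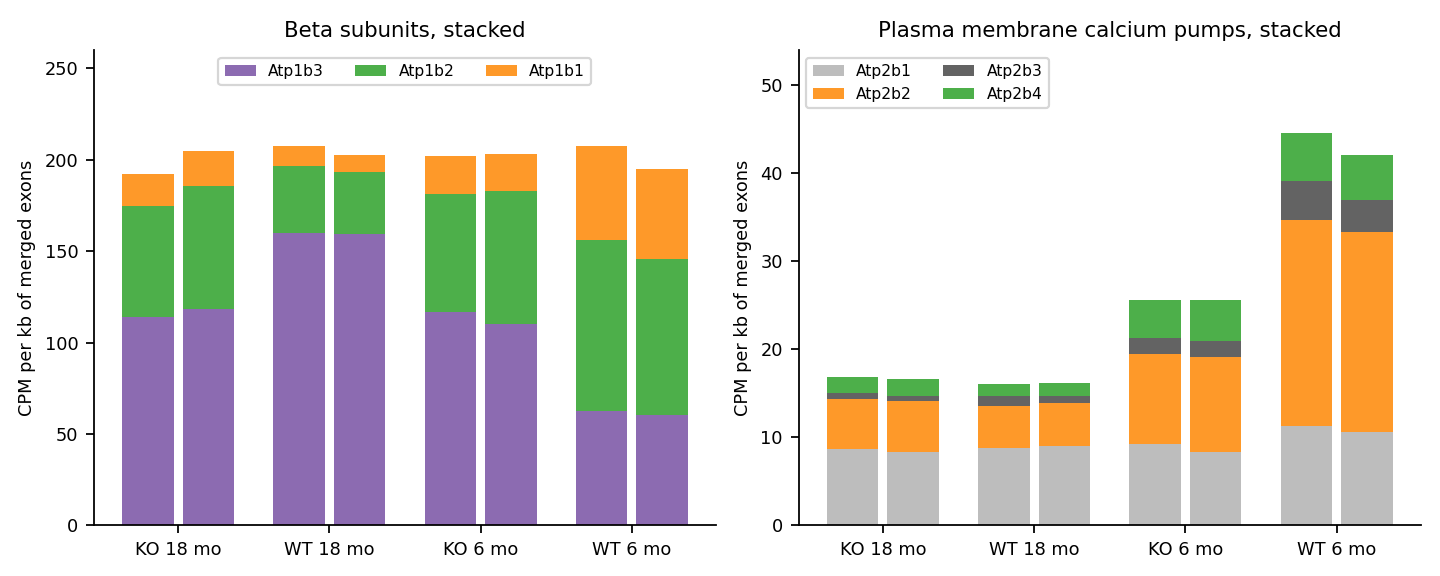
Stacked levels of the beta subunits (left) and of the plasma membrane calcium pumps (right) in each library, in CPM per kb of merged exons on linear axes from 0, with 2 bars per group. The beta bars reached 192.0 to 208 in every library with a changing make-up, while the calcium pump bars were tallest in WT at 6 months.

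Of the endoplasmic reticulum pumps, the general form was near level and the other was not. Atp2a2 (SERCA2, ENSMUSG00000029467, chr5:122453513-122502225, minus strand) had 397 and 376 CPM in KO at 18 months, 363 and 377 CPM in WT at 18 months, 380.4 and 378 CPM in KO at 6 months, and 438 and 412 CPM in WT at 6 months. The highest group mean was 1.15-fold above the lowest, the smallest such ratio among the members, and the libraries of KO at 18 months overlapped those of WT at 18 months and those of KO at 6 months. Its log2 fold change in KO over WT was 0.06 ± 0.0553 at 18 months and -0.16 ± 0.0565 at 6 months. Its exons overlap those of Gm43361 on the opposite strand, which held 1391 reads.

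Atp2a3 (SERCA3, ENSMUSG00000020788, chr11:72961169-72993044, plus strand) had 76.5 and 76.0 CPM in KO at 18 months, 33.2 and 39.0 CPM in WT at 18 months, 114 and 117 CPM in KO at 6 months, and 61.1 and 61.7 CPM in WT at 6 months. It was the one member higher in KO than in WT at both ages, and no group overlapped another. KO over WT was 2.09-fold higher at 18 months (log2 fold change 1.06 ± 0.0817) and 1.88-fold higher at 6 months (0.91 ± 0.0814). With age it was 1.68-fold lower in WT (log2 fold change -0.75 ± 0.09) and 1.51-fold lower in KO (-0.60 ± 0.0736). The difference between the genotype values at the 2 ages was 0.15 ± 0.116 in log2, the smallest among the members.

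Per length, Atp2a3 made up 18.5% ± 0.492 of Atp2a2 plus Atp2a3 RNA in KO and 10.1% ± 0.780 in WT at 18 months, and at 6 months 26.0% ± 0.493 in KO and 14.3% ± 0.621 in WT (SD, n = 2). The sum of the 2 pumps was 78.0 ± 2.43 CPM per kb in KO and 67.6 ± 2.37 in WT at 18 months, and at 6 months 84.2 ± 0.159 in KO and 81.4 ± 2.92 in WT. Atp2a1, the SERCA1 pump of fast skeletal muscle, was between 0.642 and 1.31 CPM in the group means and passed no edgeR test between groups.

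Both plasma membrane pumps among the members were lower at 18 than at 6 months in each genotype. Atp2b2 (PMCA2, ENSMUSG00000030302, chr6:113743831-114042613, minus strand) had 71.5 and 74.3 CPM in KO at 18 months, 60.9 and 61.8 CPM in WT at 18 months, 129 and 136 CPM in KO at 6 months, and 296 and 288 CPM in WT at 6 months. The groups did not overlap. The KO level was 1.19-fold higher than WT at 18 months (log2 fold change 0.25 ± 0.0678) and 2.2-fold lower at 6 months (-1.14 ± 0.0612). With age it was 4.75-fold lower in WT (log2 fold change -2.25 ± 0.0652) and 1.82-fold lower in KO (-0.86 ± 0.0642).

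Atp2b4 (PMCA4, ENSMUSG00000026463, chr1:133699457-133801041, minus strand) had the lowest level per length of the 7, with 22.6 and 23.3 CPM in KO at 18 months, 16.9 and 18.3 CPM in WT at 18 months, 52.9 and 56.6 CPM in KO at 6 months, and 66.8 and 63.2 CPM in WT at 6 months. The ages stood far apart and the genotypes close together without overlap. The KO level was 1.29-fold higher than WT at 18 months (log2 fold change 0.37 ± 0.109) and 1.19-fold lower at 6 months (-0.25 ± 0.0923). With age it was 3.66-fold lower in WT (log2 fold change -1.87 ± 0.104) and 2.39-fold lower in KO (-1.25 ± 0.0961).

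The summed plasma membrane pump level was 16.7 ± 0.185 CPM per kb in KO and 16.1 ± 0.104 in WT at 18 months, and at 6 months 25.6 ± 0.0285 in KO and 43.3 ± 1.75 in WT. Atp2b2 made up 34.5% ± 1.30 of it in KO and 30.2% ± 0.109 in WT at 18 months, and at 6 months 41.0% ± 1.44 in KO and 53.4% ± 1.07 in WT. The general form Atp2b1 (PMCA1) was the largest share at 18 months, with 50.7% ± 1.16 in KO and 55.1% ± 0.734 in WT, against 34.5% ± 2.59 in KO and 25.2% ± 0.0921 in WT at 6 months. Its level moved little: it fell in KO at 6 months (log2 fold change -0.31, edgeR adjusted p = 0.000784; lost without replicate 2 of KO at 6 months, -0.21) and with age in WT (-0.30, edgeR adjusted p = 0.000516), and its 18-month genotype value was -0.07 (edgeR adjusted p = 0.467). The neuronal form Atp2b3 (PMCA3) fell in KO at 6 months (log2 fold change -1.14, edgeR adjusted p = 2.98e-05), with age in WT (-2.13, edgeR adjusted p = 2.9e-09) and with age in KO (-1.57, edgeR adjusted p = 1.12e-05), and its 18-month genotype value was -0.57 (edgeR adjusted p = 0.0874). The log2 ratio of Atp2b2 over Atp2b4 was 1.63 ± 0.0075 in KO and 1.76 ± 0.0662 in WT at 18 months, and at 6 months 1.23 ± 0.0162 in KO and 2.12 ± 0.0276 in WT. It was lower in KO than in WT at each age by more than the SDs. The shares in this family, and their order, hold for merged exons only. Merged exons of Atp2b1 span 15218 bases against 7130 in its longest transcript, and those of Atp2b2 span 12612 against 8877. Atp2b1 would therefore take a larger share with the longest transcripts, and shares on that length are not given for this family.

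Ordered by level per length, Atp1b3 led in KO at 18 months (116 ± 3.03 CPM per kb), WT at 18 months (159.5 ± 0.409) and KO at 6 months (113 ± 4.58), and Atp1b2 led in WT at 6 months (89.2 ± 5.56). In KO at 18 months Atp1b2 (64.2 ± 4.81) and Atp2a2 (63.5 ± 2.36) were neighbours that did not differ beyond their spread. In KO at 6 months the gap between Atp2a3 (21.9 ± 0.456) and Atp1b1 (20.4 ± 0.391) exceeded it, with Atp2a3 the higher, while in WT at 6 months Atp1b1 (50.2 ± 1.60) stood far above Atp2a3 (11.6 ± 0.0882). The gap in KO at 6 months holds for merged exons (5281 bases in Atp2a3, 3081 in Atp1b1). It narrows with the longest transcripts (4606 and 2580 bases). Atp2b4 was last in every group, at 1.87 ± 0.0401 in KO and 1.44 ± 0.0804 in WT at 18 months, and at 6 months 4.47 ± 0.213 in KO and 5.31 ± 0.210 in WT.

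Counted together, 5 of the 7 members were past the edgeR threshold of an adjusted p of 0.05 with a higher level and 1 with a lower one in KO against WT at 18 months, where 32.1% of all tested genes were past it (14.7% higher and 17.4% lower). In KO against WT at 6 months 2 were higher and 5 lower, with 38.8% of all genes past it (19.2% and 19.6%). With age, 1 was higher and 6 lower in WT, with 59% of all genes past the threshold (28.2% and 30.8%), and 0 were higher and 3 lower in KO, with 31.7% (13.8% and 17.9%). For the difference of the genotype effects between the ages, 5 were past it with a positive value and Atp1b3 with a negative one (all but Atp2a3), with 39.1% of all genes (18.4% and 20.7%). Since these contrasts were in view when the members were picked, nothing is read from the counts. The libraries of the groups did not overlap for 6 members in the 18-month genotype comparison, for all 7 in the 6-month one, for all 7 with age in WT and for 4 with age in KO. Of all tested genes the same held for 66.6%, 66.8%, 77.4% and 67.3% in the same order, and nothing is read from the members' counts. The 6-month genotype comparison and the age comparison in WT share the WT libraries of 6 months.

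The weakest of these values depended on single libraries. In KO against WT at 6 months Atp2a2 was no longer past the threshold without replicate 1 (log2 fold change -0.16) or replicate 2 (-0.13) of KO at 6 months, replicate 1 of WT at 6 months (-0.11), or replicate 1 (-0.14) or replicate 2 (-0.14) of WT at 18 months. Atp2b4 was lost there without either KO library of 6 months (-0.19 without replicate 1 and -0.27 without replicate 2), either WT library of 6 months (-0.20 and -0.28) or either WT library of 18 months (-0.22 and -0.23). Both were also lost there without a filter on low counts (-0.13 for Atp2a2 and -0.21 for Atp2b4), and Atp2b4 with DESeq2 (-0.24). At 18 months Atp2b4 was lost without replicate 2 of KO (0.35) or replicate 1 of WT (0.33). With age in WT, Atp2a2 was lost without replicate 1 of WT at 18 months (-0.15) or replicate 1 of WT at 6 months (-0.14). Scaling to library size alone put Atp2a2 past the threshold at 18 months (0.21). That scaling shifts the median of all genes by 0.141 in log2 in the 18-month genotype comparison, and turns its split from 2679 higher and 3165 lower genes into 4268 and 1848. In the age comparison in KO it turns 2512 higher and 3263 lower genes into 3839 and 2543, and for the difference between ages 3358 and 3768 into 4769 and 2651.

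**Figure D3:**
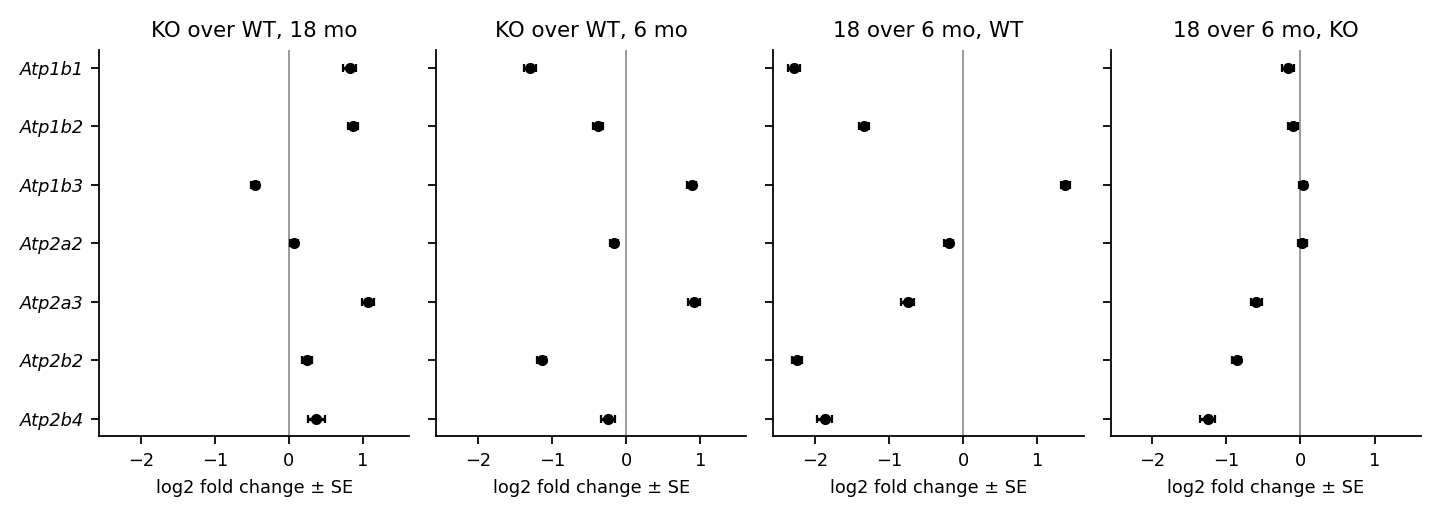
Log2 fold change of each member in the 4 comparisons, with bars for ± SE from the edgeR fit and a grey line at 0. In KO against WT, Atp1b1, Atp1b2, Atp2b2 and Atp2b4 lay above 0 at 18 months and below 0 at 6 months, Atp1b3 the reverse, and Atp2a3 above 0 at both ages.

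Markers of brain cell types differed between the groups in the same libraries, and their part in the pump values was not tested. The 9 astrocyte markers, all of them above 1 CPM in every library, summed to 8621 ± 22.4 CPM in KO and 3994 ± 20.3 CPM in WT at 18 months, and to 7027 ± 11.8 CPM in KO and 11522 ± 55.9 CPM in WT at 6 months. The 9 oligodendrocyte markers, likewise all above 1 CPM, summed to 26555 ± 280 CPM in KO and 38869.9 ± 57.5 CPM in WT at 18 months, and to 29572 ± 528 CPM in KO and 13412 ± 7.00 CPM in WT at 6 months. The 7 pericyte and smooth muscle markers summed to 1152 ± 56.1 CPM in KO and 605 ± 15.3 CPM in WT at 18 months, and to 1721 ± 0.647 CPM in KO and 1431 ± 8.80 CPM in WT at 6 months. Those of astrocytes and oligodendrocytes were the largest of the 15 lists in every group, with astrocyte markers lowest and oligodendrocyte markers highest in WT at 18 months.

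Of the neuronal lists, the 8 pan-neuronal markers, of which 6 were above 1 CPM in every library, summed to 87.8 ± 0.877 CPM in KO and 135 ± 0.297 CPM in WT at 18 months, and to 199 ± 1.58 CPM in KO and 390.3 ± 16.6 CPM in WT at 6 months. For the 7 parvalbumin interneuron markers the sums were 12.7 ± 3.67 CPM in KO and 17.4 ± 1.15 CPM in WT at 18 months, and 39.0 ± 2.47 CPM in KO and 95.9 ± 7.60 CPM in WT at 6 months, and Pvalb and Lhx6 stayed under 1 CPM in all libraries. The 7 excitatory neuron markers summed to 22.5 ± 2.92 CPM in KO and 45.5 ± 3.33 CPM in WT at 18 months, and to 153 ± 5.57 CPM in KO and 171 ± 4.49 CPM in WT at 6 months. The 5 GABA neuron markers reported here summed to 9.93 ± 0.747 CPM in KO and 19.8 ± 0.755 CPM in WT at 18 months, and to 39.0 ± 1.48 CPM in KO and 205 ± 10.7 CPM in WT at 6 months.

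Among the other lists, the 6 oligodendrocyte precursor markers summed to 674 ± 5.39 CPM in KO and 1042 ± 26.8 CPM in WT at 18 months, and to 960.1 ± 21.7 CPM in KO and 2401 ± 21.3 CPM in WT at 6 months. The 8 microglia markers summed to 72.7 ± 1.23 CPM in KO and 163 ± 7.74 CPM in WT at 18 months, and to 155 ± 1.83 CPM in KO and 117 ± 6.88 CPM in WT at 6 months. The sum of the 8 endothelial markers was 94.3 ± 0.456 CPM in KO and 91.6 ± 2.25 CPM in WT at 18 months, and 103.9 ± 0.0795 CPM in KO and 109 ± 1.71 CPM in WT at 6 months. Its members moved both ways with age in WT, with log2 fold changes of -0.87 to 1.36. By the edgeR test 6 of the 8 fell and 1 rose, where 30.8% and 28.2% of all tested genes did. Platelet markers, from cells in which SERCA3 is known, summed to 4.49 ± 0.128 CPM in KO and 5.10 ± 0.298 CPM in WT at 18 months, and 4.44 ± 0.200 CPM in KO and 3.52 ± 2.00 CPM in WT at 6 months, with Ppbp at 0. Red cell markers, from cells in which PMCA4 is known, summed to 15.8 ± 1.88 CPM in KO and 42.4 ± 5.98 CPM in WT at 18 months, and to 112 ± 6.86 CPM in KO and 21.8 ± 0.0888 CPM in WT at 6 months. Blood leukocyte markers summed to 3.11 ± 0.132 CPM in KO and 6.34 ± 0.256 CPM in WT at 18 months, and to 53.0 ± 4.22 CPM in KO and 5.72 ± 0.285 CPM in WT at 6 months. Pituitary markers summed to 74.0 and 78.5 CPM in KO and 13.9 and 13.7 CPM in WT at 18 months, and to 234 and 237 CPM in KO and 7.24 and 9.75 CPM in WT at 6 months. Most of the KO sums was Prl, the prolactin gene, which averaged 56.0 CPM in KO of 18 months and 219 CPM in KO of 6 months and had 0 reads in the WT libraries. Choroid plexus and ependyma markers stayed between 13.3 ± 3.15 CPM in KO and 26.2 ± 0.317 CPM in WT at 18 months.

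Each member was set beside the 15 marker lists by the root mean square difference of log2 CPM over the 8 libraries, after centring each profile on its own mean. This measure describes likeness in 8 libraries that share depth and composition within a group. Atp1b3 lay nearest the oligodendrocyte sum (0.101, the next list at 0.384), and Atp1b2 nearest the astrocyte sum (0.172). Atp2a3 lay nearest the pericyte and smooth muscle sum (0.270) and Atp2a2 nearest the endothelial sum (0.0726), whose members did not move together. The centred profile of Atp2a2 had an SD of only 0.0817, so any near flat sum lies close to it, and the small distance marks no cell type. Atp2b2 lay nearest the pan-neuronal sum (0.332), with the parvalbumin interneuron (0.375) and oligodendrocyte precursor (0.470) sums next. Markers in the pan-neuronal and the pericyte and smooth muscle lists did not all move together either. Of the other 2, Atp1b1 lay nearest the astrocyte sum (0.386), then about as far from the pan-neuronal (0.528) as from the oligodendrocyte precursor one (0.544). Atp2b4 was about as far from the pericyte and smooth muscle sum (0.424) as from the pan-neuronal one (0.453). In KO against WT at 18 months the astrocyte sum was at a log2 ratio of 1.11 beside 0.86 for Atp1b2, the oligodendrocyte sum at -0.55 beside -0.46 for Atp1b3, and the pericyte and smooth muscle sum at 0.93 beside 1.06 for Atp2a3. At 6 months the same sums were at -0.71 beside -0.38, at 1.14 beside 0.88, and at 0.27 beside 0.91. The pan-neuronal sum was lower in KO at both ages (-0.63 at 18 months and -0.97 at 6 months). Beside it, Atp2b2 was at 0.25 and -1.14, and Atp1b1 at 0.82 and -1.30.

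**Figure D4:**
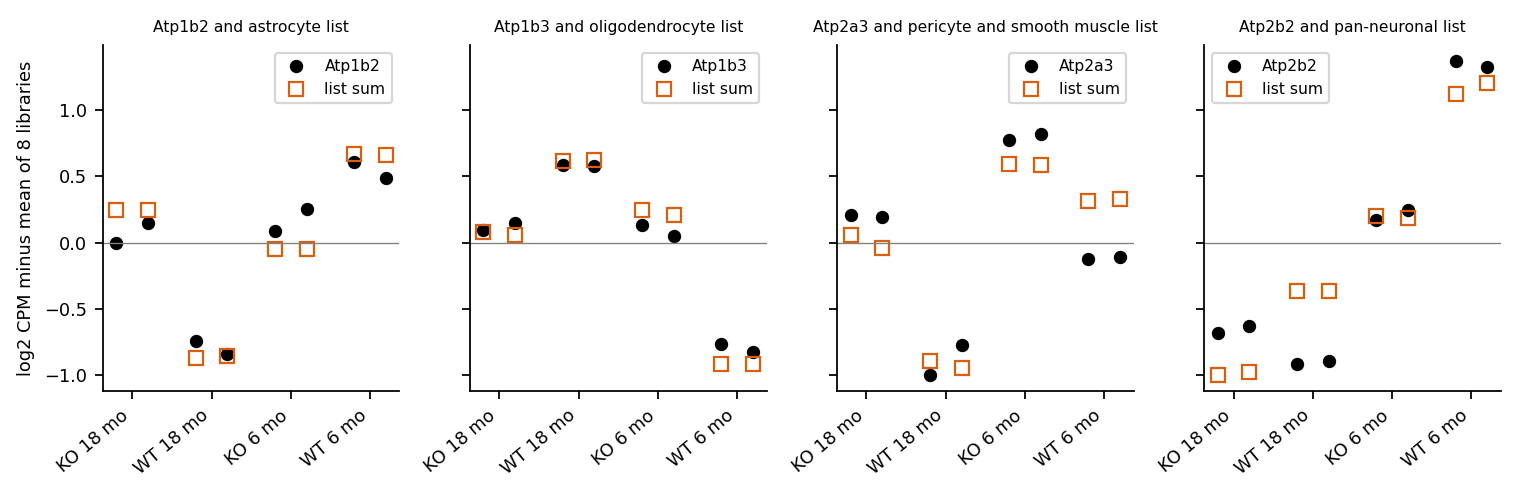
Log2 CPM of 4 members (filled circles) and of the summed marker list nearest to each (open squares) in each library, minus the mean over the 8 libraries. Atp1b3 and the oligodendrocyte sum nearly coincided, while Atp2a3 lay below the pericyte and smooth muscle sum in WT at 6 months and above it in KO at 6 months.

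Among the members themselves, Atp1b1 and Atp2b2 had the closest profiles (root mean square difference 0.276), followed by Atp2b2 and Atp2b4 (0.320). Atp1b3 and Atp2b2 were farthest apart (1.36), then Atp1b1 and Atp1b3 (1.31). By the same measure over 7350 other genes with a mean of at least 20 CPM, the closest genes to Atp1b1 were the NMDA receptor subunit Grin2c (0.119), the calcium channel Cacna1d (0.125) and the cholesterol hydroxylase Cyp46a1 (0.130), where the median of all candidates was 0.870. For Atp1b2 they were the adhesion receptor Adgrg1 (0.0749), the endothelin-converting enzyme Ece1 (0.0820) and the phosphodiesterase Pde8b (0.0868), against a median of 0.569. For Atp1b3 they were the choline transporter Slc44a1 (0.0379), Sspn, which encodes sarcospan (0.0380), and Frmd4b (0.0382), against 0.479. Atp2a2 had Pcnt, of the centrosome (0.0190), the transcription factor Tef (0.0357) and the lipid phosphatase Mtmr3 (0.0433), against 0.257. Atp2a3 had the sphingosine phosphate receptor S1pr3 (0.122), the receptor Gprc5c (0.159) and the peptidase Ggt5 (0.162), against 0.676. For Atp2b2 Insyn1 of inhibitory synapses (0.0617) and the aspartate acetylase Nat8l (0.107) were among them, against 0.924. For Atp2b4 they were the intermediate filament Vim (0.0795), the smooth muscle myosin light chain Myl9 (0.136) and the tropomyosin Tpm2 (0.145), against 0.845.

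The other genes of sodium and calcium transport were taken as a list of 54 by role, of which 53 matched an ID and 47 passed the filter. In KO against WT at 18 months 7 of the 47 rose and 16 fell, where 14.7% and 17.4% of all tested genes did, with a median log2 fold change of -0.04 against 0 over all genes. At 6 months 10 rose and 20 fell, where 19.2% and 19.6% of all genes did (median -0.31 against -0.0048). With age, 12 rose and 26 fell in WT, where 28.2% and 30.8% of all genes did (median -0.67 against -0.04), and 6 rose and 18 fell in KO, where 13.8% and 17.9% did (-0.10 against 0.0031). These shares are also the background to the counts of each role group, which carry no test of their own. Scaling to library size alone gave 12 that rose at 18 months in KO against WT, and without replicate 2 of KO at 6 months the age comparison in KO had 3 that rose and 10 that fell.

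Among sodium pump regulators, FXYD proteins are small subunits that tune the pump. Of 6 tested, 2 rose and 1 fell in KO at 18 months, and 0 rose and 2 fell at 6 months. Fxyd6, known from neurons, fell in KO at 6 months (log2 fold change -1.36, edgeR adjusted p = 4.49e-06) and at 18 months (-0.85, edgeR adjusted p = 0.00678). The 18-month call was lost without replicate 1 of KO (-0.54) or replicate 2 of WT (-0.65) at 18 months. Fxyd1, phospholemman, rose in KO at 18 months (0.47, edgeR adjusted p = 0.0148) and fell at 6 months (-0.41, edgeR adjusted p = 0.0196). Both calls for Fxyd1 were lost with DESeq2 (adjusted p = 0.0717 at 18 months and 0.0986 at 6 months), the 18-month one also without replicate 2 of KO (0.42) or replicate 1 of WT (0.42) at 18 months, and the 6-month one also without replicate 1 of KO at 6 months (-0.34), without replicate 2 of WT at 6 months (-0.32) and without a filter on low counts (-0.38). Fxyd3 was a low gene, at 3.47 ± 0.273 CPM in KO and 1.37 ± 0.193 CPM in WT at 18 months (SD, n = 2). It rose in KO at 18 months (log2 fold change 1.37, edgeR adjusted p = 0.0027), which was lost without replicate 2 of WT at 18 months (1.22). Nkain2, which encodes a protein that binds the beta1 subunit, was at 139.5 ± 0.787 CPM in KO and 193 ± 1.46 CPM in WT at 18 months, and at 124 ± 5.43 CPM in KO and 55.0 ± 0.862 CPM in WT at 6 months. It fell in KO at 18 months (log2 fold change -0.47, edgeR adjusted p = 1.18e-06) and rose at 6 months (1.18, edgeR adjusted p = 4.44e-12), in the directions Atp1b3 had. The NKAIN genes did not move as a group. Of 4 tested, 1 rose and 2 fell in KO at 18 months (log2 fold changes of -0.92 to 0.67), and 2 rose and 2 fell at 6 months (-1.59 to 1.18).

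Of the calcium pumps outside the reticulum and the plasma membrane, the Golgi pump Atp2c1 rose in KO at 6 months (log2 fold change 0.42, edgeR adjusted p = 1.44e-05) and with age in WT (0.80, edgeR adjusted p = 1.03e-10). Its fall in KO at 18 months (-0.21, edgeR adjusted p = 0.00993) was lost without replicate 2 of KO (-0.15) or replicate 2 of WT (-0.17) at 18 months and with scaling to library size alone (-0.06). Among regulators of calcium pumps, 0 of 6 rose and 4 fell in KO at 18 months, and 2 rose and 2 fell at 6 months. Calm2, a gene of calmodulin, which activates PMCA pumps, fell in KO at 18 months (-0.87, edgeR adjusted p = 1.16e-09), as did Calm3 (-0.60, edgeR adjusted p = 4.26e-08). At 6 months Calm2 rose in KO (0.28, edgeR adjusted p = 0.0063), which was lost without replicate 1 of KO at 6 months (0.26, adjusted p = 0.0575). Nptn, whose product neuroplastin is a subunit of PMCA pumps, fell in KO at 6 months (-0.37, edgeR adjusted p = 0.00012) and was at 0.07 at 18 months (edgeR adjusted p = 0.451), or past the threshold at 0.21 with scaling to library size alone.

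Sodium-calcium exchangers use the sodium gradient to expel calcium. Of 9 tested, 2 rose and 3 fell in KO at 18 months, and 2 rose and 3 fell at 6 months. The potassium-dependent exchanger Slc24a2 had 972 and 962 CPM in KO and 1219 and 1201 CPM in WT at 18 months, and 721 and 699 CPM in KO and 289 and 306 CPM in WT at 6 months. It fell in KO at 18 months (log2 fold change -0.32, edgeR adjusted p = 2.07e-05) and rose in KO at 6 months (1.26, edgeR adjusted p = 1.33e-14). The neuronal exchanger Slc8a2 fell in KO at 6 months (-1.08, edgeR adjusted p = 7.56e-07) and with age in WT (-2.19, edgeR adjusted p = 7.06e-12) and in KO (-1.53, edgeR adjusted p = 1.27e-07).

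Of 11 channels that release calcium from the reticulum or let it enter, 1 rose and 2 fell in KO at 18 months, with a median log2 fold change of 0.04. In KO at 6 months 1 rose and 7 fell (median -0.48), and with age 0 rose and 8 fell in WT (-1.02) and 0 rose and 6 fell in KO (-0.76). Ryr2, a ryanodine receptor, had 9.16 and 11.4 CPM in KO and 15.5 and 17.6 CPM in WT at 18 months, and 68.7 and 71.9 CPM in KO and 190.3 and 203 CPM in WT at 6 months. It fell in KO at 18 months (log2 fold change -0.71, edgeR adjusted p = 0.000117) and at 6 months (-1.49, edgeR adjusted p = 5.14e-13). Itpr2, the inositol trisphosphate receptor known from astrocytes, rose in KO at 18 months (0.37, edgeR adjusted p = 5.11e-05) and fell at 6 months (-0.71, edgeR adjusted p = 1.54e-09). Of the 6 mitochondrial calcium uniporter genes, the pore Mcu rose in KO at 18 months (0.71, edgeR adjusted p = 2.45e-05) and fell at 6 months (-0.60, edgeR adjusted p = 0.000332), while its gatekeeper Micu2 fell at 18 months (-0.59, edgeR adjusted p = 2.19e-05) and rose at 6 months (0.70, edgeR adjusted p = 3.75e-05). The uniporter regulator Smdt1 fell in KO at 18 months (-0.86, edgeR adjusted p = 1.97e-07).

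**Figure D5:**
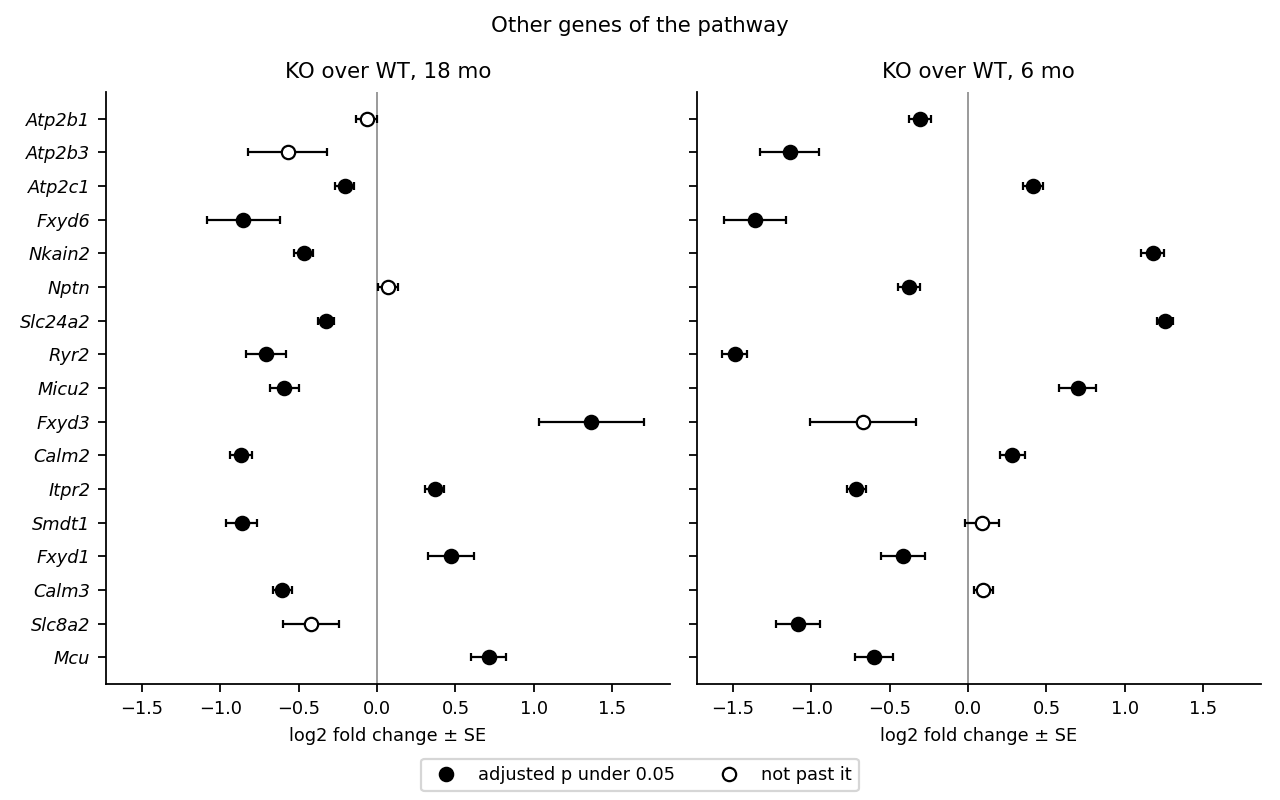
Log2 fold change ± SE of 17 other sodium and calcium transport genes in KO over WT at 18 months (left) and 6 months (right), from the edgeR fit. Filled circles passed an adjusted p of 0.05 and open circles did not. Fxyd6 and Ryr2 fell in KO at both ages, while Itpr2, Fxyd1 and Mcu rose at 18 months and fell at 6 months.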

How the data were processed

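RNA-seq of sorted cortical cells was deposited by the authors as raw counts of reads for each gene in a separate file for each library. The tools named are featureCounts 1.5.0-p1, STAR 2.5.2a and CASAVA 1.8.2, with the build mm10, per the submitters' processing notes. The sources used here do not give the annotation or the settings for strand and multiple matches. Symbols, positions and merged exon lengths came from GENCODE M21, which named 55480 of 55573 IDs (99.8%). Groups and replicate numbers follow the sample titles. Under R 4.3.3, edgeR 4.0.16 fitted the counts of all 4 groups in 1 quasi-likelihood model after filterByExpr (minimum count 10) and TMM scaling, with p-values adjusted by Benjamini-Hochberg across all 18205 tested genes and a threshold of 0.05. The common coefficient of variation, which edgeR calls biological, was 0.0539, with 4 residual and 19.1 prior degrees of freedom. Here it measures spread between libraries of pooled cells and not between mice. The libraries of a group differed by more than sampling noise (chi-square of 2.61 to 4.86 per gene), so each was counted as a unit in the fit. That does not make them independent mice, and the p-values compare groups against the spread between libraries alone. The method was tested on simulated data. CPM are the deposited counts over the TMM-adjusted totals of tested genes. SE is the log2 fold change divided by the root of its F statistic. Total depth of 6008175 to 13551218 reads gave each member at least 135 reads in every library.

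The members and gene lists were chosen with earlier results of these data known, so the members' values in the fit, calls included, are a description and none is printed with a p-value. Named beside them are the other calcium pump genes tested, the gene with the smallest p of each role group in each comparison, and the 3 closest profiles to each member, except that some items of the rule and of the transport and marker lists are not reported here, and the lists' sums and counts leave them out. Replicate numbers share no stated batch, and deviations of same-numbered libraries correlated at -5.24e-06 to 0.0758, so the samples were not paired. Alternatives were other scalings (RLE factors, library size alone), DESeq2 1.42.0, no filter, leaving out Gm26917 and mitochondrial genes, fitting only the compared groups, a replicate block, leaving out each library, and longest transcripts as gene length. DNA data were not analysed here.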

Additional observations from a re-analysis of the deposited data

Results flagged for a closer look

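These results were picked out because the log2 fold change of KO over WT at 18 months minus that at 6 months, the interaction of genotype and age in the edgeR fit, was past an adjusted p of 0.05. Across all tested genes 39.1% were past it. For the members, chosen with these values known, the differences are a description. They were 2.12 for Atp1b1, 1.24 for Atp1b2, -1.34 for Atp1b3, 0.23 for Atp2a2, 1.39 for Atp2b2 and 0.62 for Atp2b4. That of Atp2a2 was past the threshold no longer with DESeq2 (0.21) or without replicate 1 of KO at 18 months (0.18), replicate 1 (0.22) or replicate 2 (0.21) of KO at 6 months, replicate 1 of WT at 18 months (0.18) or replicate 1 of WT at 6 months (0.17).

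Among other pumps the differences were 0.24 for Atp2b1 and -0.62 for Atp2c1. Those of sodium pump regulators were -1.64 for Nkain2, 2.04 for Fxyd3 and 0.89 for Fxyd1. The value of Fxyd3 is that of a low gene, at 1.37 to 4.01 CPM in the group means. Calcium pump regulators gave 0.44 for Nptn, -1.15 for Calm2 and -0.70 for Calm3. The exchangers gave -1.58 for Slc24a2 and 0.66 for Slc8a2, and the release channels 0.78 for Ryr2 and 1.08 for Itpr2. The uniporter genes gave -1.29 for Micu2, -0.95 for Smdt1 and 1.31 for Mcu. The call of Atp2b1 was lost with RLE factors (0.22), DESeq2 (0.22) or no filter (0.23), and without replicate 1 of KO at 18 months (0.20), replicate 2 of KO at 6 months (0.16), replicate 1 (0.21) or 2 (0.26) of WT at 18 months, or replicate 1 of WT at 6 months (0.18). The call of Slc8a2 was lost with DESeq2 (0.65) and without replicate 2 of KO at 18 months (0.48), replicate 1 of KO at 6 months (0.62), replicate 1 (0.66) or 2 (0.64) of WT at 18 months, or replicate 1 of WT at 6 months (0.57).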

How the results depend on the processing

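No log2 fold change of a member or another named gene that was past the threshold changed sign under any alternative run. Of the member values under the alternatives, 492 kept their side of the threshold, 24 lost it and 2 gained it. The number of genes past the threshold moved by over 1.5 times for KO against WT at 18 months, from leaving out libraries (3737 to 6355, the lowest without replicate 2 of WT at 18 months, against 5844), and for age in KO, with DESeq2 (3736 against 5775) and from leaving out libraries (3255 to 6285, lowest without replicate 2 of KO at 6 months, and 3540 without replicate 1 of KO at 18 months). These settings leave fewer samples or use another test, and the cause was not tested further. The replicate block gave 7421 genes for genotype at 6 months, 6322 at 18 months, 11005 for age in WT, 6301 for age in KO and 7494 for the interaction, and changed no call of a named gene. Scaling to library size alone shifts the median of all genes by -0.139 in the age comparison in WT and 0.208 in the interaction, and put Atp2a3 past the threshold in the interaction (0.35). With the longest transcript as gene length in place of merged exons, shares of Atp1b1 were 9.43% in 18-month KO, 10.4% in 6-month KO and 26.0% in 6-month WT. Those of Atp1b2 were 30.3% in 18-month KO, 15.9% in 18-month WT and 42.1% in 6-month WT, and those of Atp1b3 were 60.3%, 79.0% and 31.9% in the same groups. Log2 ratios of Atp1b1 over Atp1b2 became -1.68 in 18-month KO, -1.63 in 18-month WT and -0.70 in 6-month WT. Those of Atp2b2 over Atp2b4 became 2.07 in 18-month KO, 2.20 in 18-month WT, 1.68 in 6-month KO and 2.57 in 6-month WT, and those of Atp2a2 over Atp2a3 became 2.04 in 18-month KO, 1.42 in 6-month KO and 2.49 in 6-month WT. Another gene length shifts a log2 ratio by the same amount in each group. Whether depth limited the calls of low genes was not tested, and technical replicates of pooled cells leave the spread between mice unknown.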
